A study of Homo sapiens with 12 samples.

Results

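The genes described here encode the proteins of the mitochondrial ribosome. They were taken by name: a row of the deposited tables belonged if its gene symbol started with MRPL (large subunit) or MRPS (small subunit) followed by a number, carried no hyphen, and had a value of at least 10 in at least 3 of the 12 libraries. All 78 such rows passed the filter on low values, out of 14866 genes listed and 13502 that passed the same filter. By name 47 belonged to the large subunit, 29 to the small subunit, and 2 were pseudogenes, MRPL45P2 and MRPS31P5.

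RNA was sequenced from SHI-1 cells, a human acute myeloid leukaemia line that carries the MLL-AF6 fusion, after 16 h in culture. A 2 by 2 design gave 4 groups of 3 libraries: DMSO as the vehicle, DSF (0.3 µM disulfiram with 1 µM copper), NSM (5 µM niclosamide), and DSF + NSM (both drugs and copper at those doses). Disulfiram is an aldehyde dehydrogenase inhibitor that binds copper, and niclosamide is an anthelmintic that uncouples mitochondrial respiration. The sources used here do not say whether the DMSO and NSM cultures also received copper, so copper cannot be told apart from disulfiram. A single cell line was used, with 3 independent experiments. Transcripts of the myeloid genes CD33, MPO, SPI1, CEBPA and PTPRC were found in every library, and the B-cell gene MS4A1 was listed at 0 throughout.

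The mitochondrial ribosome sits inside the organelle and makes the few proteins that mitochondrial DNA encodes, all of them subunits of the respiratory chain and the ATP synthase. Its ribosomal RNAs, a 12S molecule in the small subunit and a 16S molecule in the large one, are transcribed from mitochondrial DNA, whereas every protein of the particle is encoded in the nucleus, translated in the cytosol and imported. Some of these proteins descend from bacterial ribosomal proteins and others exist only in mitochondria. Nuclear genes for mitochondrial functions are often controlled by GABPA, an ETS-family factor also called NRF2, by NRF1 and by YY1, with MYC and the coactivator PPRC1 acting on many of them.

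The promoters shown here belong to members whose transcripts moved most under both drugs and whose 150 bases before the start held one of the motifs searched. The stretch between MRPL18 and its neighbour is shown further below. A RefSeq promoter (GRCh38.p14) was found for 67 of the 76 members that are not pseudogenes, and the 250 bases before each start were searched on both strands. Each line gives the 150 bases before the RefSeq start, 5′ to 3′ on the strand of the gene. The GENCODE start of MRPS23 (57850056) differs from its RefSeq start and falls within the marked letters. Capitals mark the NRF1 motif (GCGCA and GCGC with any base between) in MRPL17 and CCGGAAG or its reverse complement (GABPA and other ETS factors) in the others.
MRPL17, chr11:6683341-6683490, minus strand: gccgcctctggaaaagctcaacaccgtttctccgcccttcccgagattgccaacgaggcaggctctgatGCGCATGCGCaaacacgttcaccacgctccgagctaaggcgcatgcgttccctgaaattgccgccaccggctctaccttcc
MRPS23, chr17:57850045-57850194, minus strand: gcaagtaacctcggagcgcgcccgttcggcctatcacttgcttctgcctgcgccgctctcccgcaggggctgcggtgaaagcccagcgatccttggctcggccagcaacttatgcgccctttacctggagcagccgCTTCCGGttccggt
MRPS26, chr20:3045902-3046051, plus strand: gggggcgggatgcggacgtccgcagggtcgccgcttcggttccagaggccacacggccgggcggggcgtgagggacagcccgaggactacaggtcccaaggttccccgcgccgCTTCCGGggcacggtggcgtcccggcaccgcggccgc
MRPL54, chr19:3762532-3762681, plus strand: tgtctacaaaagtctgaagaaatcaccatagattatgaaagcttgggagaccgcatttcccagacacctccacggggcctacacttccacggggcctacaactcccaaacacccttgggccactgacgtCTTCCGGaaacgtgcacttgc
MRPS18A, chr6:43687792-43687941, minus strand: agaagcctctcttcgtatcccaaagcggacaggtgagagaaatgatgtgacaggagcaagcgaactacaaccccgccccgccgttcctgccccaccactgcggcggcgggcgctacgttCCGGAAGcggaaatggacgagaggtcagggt

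Among the 67 promoters, CCGGAAG occurred in 22 (32.8%), compared with 8.82% of all 27305 RefSeq promoters and 16.3% of the 9545 that belonged to tested genes. The share was 32.5% in the large subunit and 33.3% in the small one. The NRF1 motif occurred in 7 promoters (10.4%, against 10.6% of tested genes), the YY1 motif AANATGGCG in 3 (4.48%, against 2.28%) and the E-box CACGTG, a MYC motif, in 6 (8.96%, against 9.03%). Among the promoters shown, the ETS letters stood before genes that fell (MRPS23 and MRPS26) and before genes that rose (MRPL54 and MRPS18A) under both drugs. MRPS18C, which also rose, held them further upstream, from −222. Under DSF + NSM, 8 of the 22 genes with the ETS letters were lower and 7 higher, and of the 45 without them 16 were lower and 8 higher, where 24.5% of all genes tested were lower and 28.3% higher.

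The deposited values are normalized counts per gene. Their sums differed between the groups, from 13963864 to 14379702 in DMSO, 14907290 to 15330685 in DSF, 16477426 to 17516910 in NSM and 22657898 to 25584448 in DSF + NSM. All values below keep the deposited scale, on which the median gene hardly moved (0.05, 0.01 and 0.03 on the log2 scale for DSF, NSM and DSF + NSM against DMSO). With every library scaled to the same sum instead, the median gene stood at −0.05, −0.25 and −0.75. Named changes that were called on either scale and turned under that scaling are given where they occur or at the end. NSM replicate 3 stood apart: over the members, its Spearman correlations with the other NSM libraries included the lowest of the 12 between libraries of a group (0.772, median 0.982). It lay below both other NSM libraries for 47 of the 76 genes and above both for 24, by at least 0.5 on the log2 scale for 23 and 7 of them. The counts of members called are given with and without it, as are values of some, not all, of the named genes that move with it. Without it the fit called more genes in every comparison, and 3 calls of members were lost, all under NSM (MRPL15, MRPL16 and MRPL32, limma adjusted p = 0.0597, 0.0552 and 0.0770). Fold changes are on the scale of log2(value + 1), with the standard error from limma fitted to all 12 libraries, and a gene was called at an adjusted p under 0.05 (Benjamini-Hochberg over all 13502 genes).

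DSF lowered the transcripts of a part of the mitochondrial ribosome and raised none. Of the 78 members, 17 were lower and 0 higher than in DMSO, whereas 5.95% of all genes tested were lower and 11.9% were higher (percent called in either direction 17.8). Of the 47 large subunit genes 10 fell, and of the 29 small subunit genes 7 fell. The medians were −0.21 and −0.26 on the log2 scale. All 3 DSF libraries lay below all 3 DMSO libraries for 45 of 76 genes and above them for 4, compared with 27.6% and 33.4% of all genes. Without NSM replicate 3, which enters this comparison only through the shared estimate of spread, 28 members were lower and 2 higher, against 17.6% and 23.6% of all genes (41.2% in either direction). The count called was 4 without DMSO replicate 2 or DSF replicate 2, 6 without DMSO replicate 1 and 7 without DSF replicate 1. For the small subunit it was 0 without DMSO replicate 2 or DSF replicate 2.

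MRPL1 (chromosome 4, 77862830 to 77952785), a large subunit protein with a bacterial counterpart at the place where spent tRNA leaves, fell most under DSF. Its normalized counts were 818, 746 and 612 in DMSO, and 282, 242 and 336 in DSF. Every DSF library was thus below every DMSO library. The log2 fold change was −1.34 ± 0.28 (SE; limma adjusted p = 0.00707).

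MRPL19, a large subunit protein with a bacterial relative, was at 1279, 1294 and 1139 normalized counts in DMSO, and at 583, 582 and 762 in DSF (log2 fold change −0.95 ± 0.20, limma adjusted p = 0.00692). Here too the groups did not overlap. MRPL13 went from 1157 ± 116 to 648 ± 81.0 (mean ± SD, n = 3), a log2 fold change of −0.84 ± 0.15 (limma adjusted p = 0.00308). MRPL3, a core protein of the large subunit, went from 3412, 3327 and 3200 in DMSO to 1890, 1636 and 2207 in DSF (−0.80 ± 0.18, limma adjusted p = 0.00913, and 0.0590 without DSF replicate 2). Under NSM MRPL3 was not called in the main fit, but it was called lower without NSM replicate 3 (−0.65, limma adjusted p = 0.000146).

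In the small subunit the largest falls under DSF were those of MRPS28, MRPS36 and MRPS17. MRPS28 was at 394, 428 and 373 normalized counts in DMSO and at 238, 214 and 285 in DSF (−0.70 ± 0.16, limma adjusted p = 0.0117). MRPS36, named for the ribosome but since described as a subunit of the 2-oxoglutarate dehydrogenase complex, was at 507, 443 and 407 in DMSO and at 296, 234 and 310 in DSF (−0.70 ± 0.17, limma adjusted p = 0.0172). MRPS17 was at 349, 360 and 299 in DMSO and at 232, 199 and 233 in DSF (−0.60 ± 0.15, limma adjusted p = 0.0160). No library of either group crossed into the other for these genes. The calls of these 3 genes were lost when 1 of replicates 1 and 2 of DMSO or of DSF was left out, not each gene with each library, with limma adjusted p between 0.0508 and 0.0971.

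**Figure D1:**
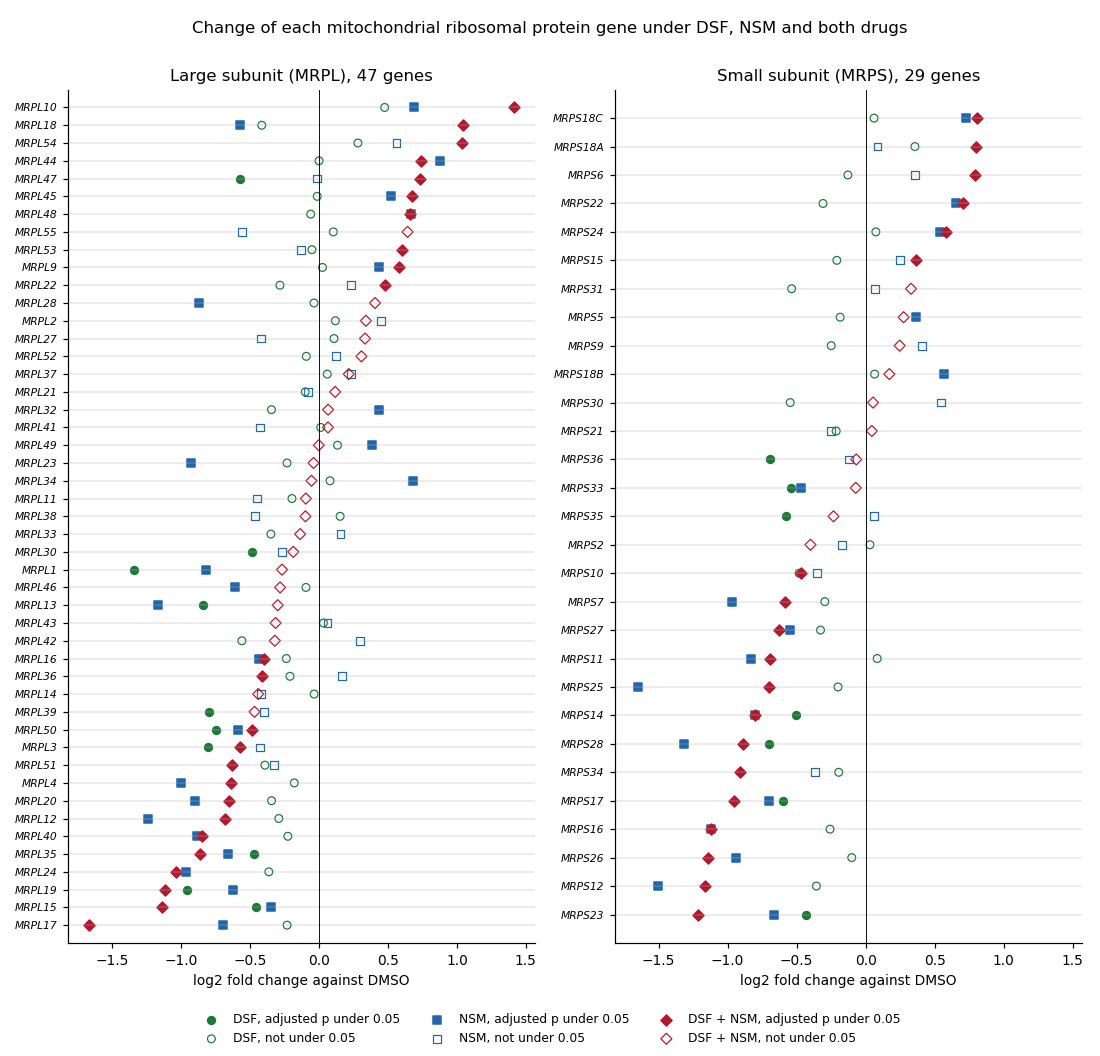
Log2 fold change against DMSO (x axis) of the 47 large (left) and 29 small (right) subunit genes, ordered by their change under DSF + NSM; circles stand for DSF, squares for NSM and diamonds for DSF + NSM, filled at a limma adjusted p under 0.05. Filled circles lie on the left of 0 alone, while filled squares and diamonds lie on both sides, from MRPL17 at −1.66 to MRPL10 at 1.41 for DSF + NSM.

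NSM moved more of the genes, and in both directions. Of the 78 members 29 were lower and 14 higher than in DMSO, against 23.7% and 25.4% of all genes (49.1% in either direction). In the large subunit 17 fell and 8 rose, and in the small subunit 12 fell and 5 rose. The medians were −0.40 for the large and −0.25 for the small subunit. Without NSM replicate 3 the large subunit median was −0.06 and that of the small subunit −0.20, with 31 of the 78 lower and 19 higher against 28.7% and 31.2% of all genes (59.9% in either direction). The lower median of the large subunit thus rested on that library. Without DMSO replicate 1 the count called was 28 in place of 43. Scaled to equal sums, 23 fell and 3 rose in the large subunit, and 15 fell and 2 rose in the small one. On that scale 33.5% of all genes were lower and 16.4% higher, so most of the rises were called only on the deposited scale. All 3 NSM libraries lay below all DMSO libraries for 33 of the 76 genes and above them for 18, compared with 27.9% and 29.1% of all genes.

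MRPS25 (chromosome 3, 15009611 to 15065339), a small subunit protein found only in mitochondria, fell most under NSM. Its normalized counts were 2170, 2085 and 2056 in DMSO, and 877, 814 and 418 in NSM. All NSM libraries were far below DMSO, and replicate 3 was the lowest. The log2 fold change was −1.65 ± 0.22 (limma adjusted p = 6.62e-05), and −1.31 without NSM replicate 3. Exons of MRPS25 share 7157 bases with NR2C2 on the other strand, and reads from the pair cannot be told apart if strand was not used in counting.

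MRPS12 (chromosome 19, 38930944 to 38933168) encodes the relative of bacterial S12, which guards the accuracy of decoding. It was at 673, 604 and 599 normalized counts in DMSO and at 267, 288 and 138 in NSM, again with replicate 3 lowest. The change was −1.50 ± 0.25 (limma adjusted p = 0.000384), and −1.17 without that replicate. MRPS28 fell from 398 ± 27.8 to 159 ± 17.9 (mean ± SD, n = 3), a log2 fold change of −1.32 ± 0.16 (limma adjusted p = 3.9e-05).

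MRPL12 is the stalk protein that recruits translation factors and also binds the mitochondrial RNA polymerase. It stood at 2069, 2099 and 1849 normalized counts in DMSO and at 1102, 1064 and 522 in NSM. The groups did not overlap, and the change was −1.24 ± 0.26 (limma adjusted p = 0.00201), or −0.89 without NSM replicate 3. MRPL13 fell by 1.17 ± 0.15 on the log2 scale (limma adjusted p = 5.95e-05), its NSM libraries standing at 448, 547 and 551. MRPL4 went from 2593, 2694 and 2484 in DMSO to 1507, 1407 and 1016 in NSM (a fall by 1.0 ± 0.19 on the log2 scale, limma adjusted p = 0.0011; −0.83 without NSM replicate 3).

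The rises under NSM were led by MRPL44 (chromosome 2, 223957463 to 223967714), a protein near the exit of the peptide tunnel. Its normalized counts were 726, 819 and 759 in DMSO, and 1368, 1351 and 1514 in NSM. Replicate 3 was close to the others for this gene, and the change was 0.88 ± 0.11 (limma adjusted p = 4.62e-05). Without that library MRPL54 (0.98) and MRPL10 (0.97) rose more than MRPL44 (0.82). MRPL34, a small basic protein of the large subunit, went from 1864, 1907 and 1655 to 3177, 2868 and 2673 (0.68 ± 0.12, limma adjusted p = 0.000536). MRPS22 went from 976, 1044 and 987 to 1424, 1493 and 1849 (0.65 ± 0.13, limma adjusted p = 0.00105). Its exons share 6378 bases with genes on the other strand, COPB2 among them.

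With both drugs 27 of the 78 members were lower and 18 higher than in DMSO, against 24.5% and 28.3% of all genes (52.8% in either direction). In the large subunit 14 fell and 10 rose (median −0.10), and in the small subunit 13 fell and 6 rose (median −0.23). Scaled to equal sums, 57 of the 78 were lower and 1, MRPL10, was higher (56.3% and 11.3% of all genes), so that on that scale the other rises named below were not called or turned. Without NSM replicate 3, 34 of the 78 were lower and 26 higher, against 32.5% and 35.3% of all genes (67.8% in either direction). All 3 DSF + NSM libraries lay below all DMSO libraries for 34 of the 76 genes and above them for 22, compared with 32.9% and 36.4% of all genes.

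MRPL17 (chromosome 11, 6680385 to 6683340), whose bacterial relative lies near the tunnel exit, fell most. Its normalized counts were 1639, 1597 and 1401 in DMSO, 1288, 1212 and 1452 in DSF, 993, 1111 and 779 in NSM, and 497, 544 and 424 in DSF + NSM. The DSF + NSM libraries were below every other library. The log2 fold change against DMSO was −1.66 ± 0.16 (limma adjusted p = 3.13e-06).

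MRPS23 (chromosome 17, 57834781 to 57850056) led the falls in the small subunit. It stood at 1082, 1133 and 990 normalized counts in DMSO, 798, 744 and 829 in DSF, 652, 653 and 712 in NSM, and 478, 493 and 408 in DSF + NSM. The 4 groups did not overlap, each lower than the one before. The change under both drugs was −1.22 ± 0.12 (limma adjusted p = 6.32e-06). MRPL15 went from 1179 ± 35.1 to 539 ± 61.6 (mean ± SD, n = 3), a log2 fold change of −1.14 ± 0.13 (limma adjusted p = 2.04e-05). MRPL19, with DSF + NSM libraries at 577, 537 and 593, fell by 1.12 ± 0.20 (limma adjusted p = 0.000499).

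MRPS12 stood at 290, 339 and 220 normalized counts under both drugs, a fall of 1.16 ± 0.25 on the log2 scale (limma adjusted p = 0.00194). MRPS26, a small subunit protein with no bacterial relative, went from 765, 698 and 622 in DMSO to 364, 347 and 242 (−1.14 ± 0.30, limma adjusted p = 0.00613). For both genes the DSF + NSM libraries lay below all DMSO libraries.

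MRPL10 (chromosome 17, 47823272 to 47831541) anchors the stalk to the large subunit, and it rose most. Its normalized counts were 751, 709 and 728 in DMSO, 965, 1147 and 944 in DSF, 1510, 1357 and 799 in NSM, and 2007, 1996 and 1832 in DSF + NSM. All treated libraries were above DMSO, with NSM replicate 3 close to it. The change under both drugs was 1.41 ± 0.20 (limma adjusted p = 7.66e-05), and 0.63 with libraries scaled to equal sums (limma adjusted p = 0.0139).

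MRPL54, a large subunit protein found only in mitochondria, was at 1073, 1002 and 795 normalized counts in DMSO and at 2132, 2120 and 1627 in DSF + NSM (1.03 ± 0.29, limma adjusted p = 0.00905; 0.25 scaled to equal sums, limma adjusted p = 0.449). MRPS6 went from 610, 561 and 542 to 1078, 1132 and 790 (0.79 ± 0.14, limma adjusted p = 0.000569; 0.01 scaled to equal sums, limma adjusted p = 0.957). No DSF + NSM library of these genes was as low as a DMSO library.

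**Figure D2:**
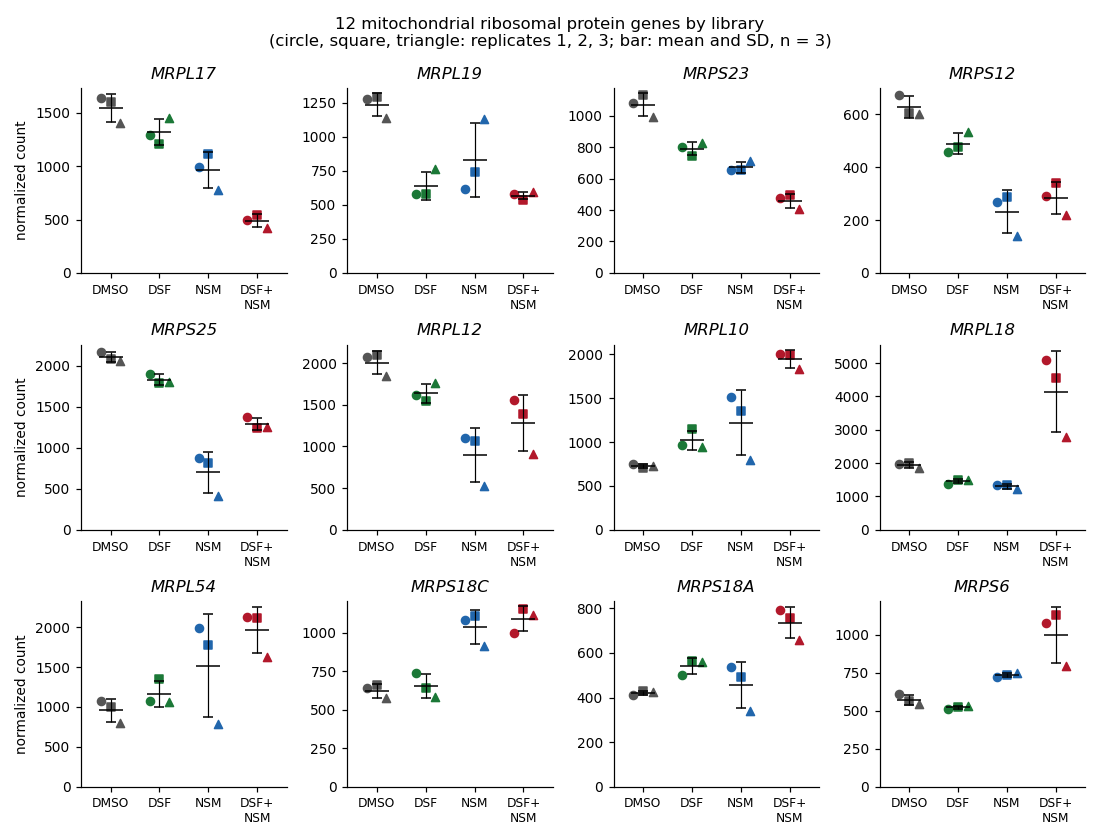
Normalized counts (y axis, from 0) of 12 members in the 12 libraries by group (x axis), with circles, squares and triangles for replicates 1, 2 and 3 and bars for the mean and SD. MRPL17 and MRPS23 are lowest with both drugs, MRPL10 is highest with both drugs (1832 to 2007 against 709 to 751 in DMSO), and NSM replicate 3 lies apart from replicates 1 and 2 for MRPL10, MRPL12, MRPL54 and MRPS25.

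MRPS18A, MRPS18B and MRPS18C are related proteins that descend from a single bacterial S18; MRPS18A is built into the large subunit despite its name. MRPS18C stood at 638, 661 and 574 normalized counts in DMSO, 736, 643 and 581 in DSF, 1084, 1111 and 912 in NSM, and 1000, 1156 and 1117 in DSF + NSM. It rose by 0.73 ± 0.14 under NSM and by 0.80 ± 0.14 under both drugs on the log2 scale (limma adjusted p = 0.00088 and 0.000346), though by 0.02 under both drugs when scaled to equal sums (limma adjusted p = 0.904). Its exons share 1956 bases with ABRAXAS1 on the other strand. MRPS18B stood at 951, 981 and 956 in DMSO, at 1601, 1608 and 1125 in NSM, and at 1104, 1092 and 1058 in DSF + NSM. Only the NSM change was called (0.57 ± 0.14, limma adjusted p = 0.00581; 0.74 without NSM replicate 3). That call was lost when scaled to equal sums (0.30, limma adjusted p = 0.116) and the DSF + NSM value of 0.17 turned to −0.61 on that scale. MRPS18A stood at 412, 428 and 426 in DMSO, 502, 565 and 558 in DSF, 535, 493 and 340 in NSM, and 795, 758 and 657 in DSF + NSM, and was called under DSF + NSM (0.80 ± 0.17, limma adjusted p = 0.00163; 0.02 scaled to equal sums, limma adjusted p = 0.938). It was also called higher, once NSM replicate 3 was left out, under DSF (0.36, limma adjusted p = 0.0111) and under NSM (0.28, limma adjusted p = 0.0421). Differences between the 3 relatives were not tested.

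Sites of the large subunit were compared by grouping its proteins after their values had been seen. Of 5 stalk proteins (MRPL10, MRPL11, MRPL12, MRPL53 and MRPL54), 3 were higher and 1 lower under DSF + NSM, with a median of 0.60, while 28.3% and 24.5% of all genes were higher and lower. On the scale of equal sums 1 was higher and 2 were lower (median −0.18), against 11.3% and 56.3% of all genes. MRPL12 was the lower one (−0.68 ± 0.26, limma adjusted p = 0.0456, a call lost without any 1 of the DMSO or DSF libraries and without DSF + NSM replicate 2 or 3, with limma adjusted p of 0.0598 to 0.191). MRPL11, the stalk base protein, was at 1320, 1258 and 1187 normalized counts in DMSO and at 1336, 1300 and 931 in DSF + NSM. In the main fit it was not called in any of the 3 comparisons with DMSO. Of 22 other settings, 7 called it lower under NSM, among them equal sums (−0.72, limma adjusted p = 0.0034) and the replicate block (−0.45, limma adjusted p = 0.0297). Scaled to equal sums it was also called lower under DSF + NSM (−0.88, limma adjusted p = 0.000491). Of 6 proteins of the central protuberance, where the large subunit meets the small one, 2 were higher and 1 lower (median 0.11), but 0 and 4 when scaled to equal sums. Of 7 proteins around the tunnel exit, 3 were higher and 2 lower (median −0.04), but 0 and 5 on that scale.

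MRPS34, a mitochondria-specific protein needed for a stable small subunit, went from 1871, 1728 and 1660 normalized counts in DMSO to 1138, 1098 and 647 in DSF + NSM (−0.91 ± 0.22, limma adjusted p = 0.00366). MRPS30, which belongs to the large subunit, stood at 446, 462 and 440 in DMSO, at 458, 515 and 1200 in NSM, and at 487, 422 and 495 in DSF + NSM. It was not called in any comparison with DMSO, and its NSM mean was set by replicate 3. Without that library it was called lower under DSF (−0.55, limma adjusted p = 0.000712), where it stood at 312, 301 and 310, and its NSM value was 0.11.

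Summed over all genes of each subunit, the ratio of large to small was 1.77 to 1.85 in DMSO, 1.79 to 1.86 in DSF, 1.77 to 1.91 in NSM and 1.93 to 2.15 in DSF + NSM. The DSF + NSM ratios were above all others. They were 1.81 to 1.95 without MRPL18, where DMSO stood at 1.71 to 1.78. Without MRPL18 and MRPL10 they were 1.73 to 1.88, and overlapped with the 1.68 to 1.76 of DMSO. The 2 genes left out were those of the large subunit that rose most, so a fall of the ratio was fixed in advance. Without them the ratio was 1.81 ± 0.07 for DSF + NSM and 1.72 ± 0.04 for DMSO (mean ± SD, n = 3).

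All members without the pseudogenes took 0.526 to 0.581% of the summed values in DMSO, 0.426 to 0.461% in DSF, 0.379 to 0.437% in NSM and 0.291 to 0.319% in DSF + NSM. The groups did not overlap except for DSF and NSM. Their sum on the deposited scale was 78866 ± 3510 (mean ± SD, n = 3) for DMSO, 66700 ± 3434 for DSF alone, 70492 ± 4293 for NSM alone and 75879 ± 8607 for the combination. The share under both drugs was lower while the sum overlapped with that of DMSO, since the library sums themselves were higher.

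**Figure D3:**
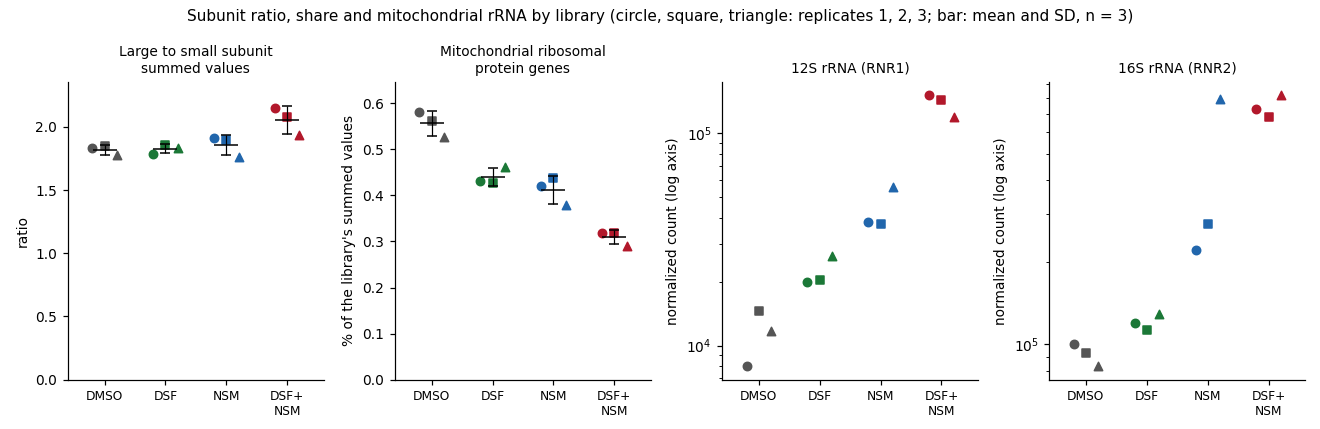
From left to right, the ratio of summed large to summed small subunit values, the share of all values taken by the 76 members (%), and the normalized counts of the 12S and 16S rRNA (log axes), in the 12 libraries by group, with bars for mean and SD in the first 2 panels. The ratio is 1.93 to 2.15 with both drugs and at most 1.91 elsewhere, the share is lowest with both drugs, and the 16S rRNA of NSM replicate 3 (790510) lies with the DSF + NSM libraries.

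The comparisons with DMSO share their control libraries, so their calls are not independent of each other and are only set side by side. MRPS23 changed by −0.43, −0.67 and −1.22 on the log2 scale under DSF, NSM and both drugs (limma adjusted p = 0.0315, 0.000842 and 6.32e-06). MRPL35 changed by −0.47, −0.66 and −0.86 (limma adjusted p = 0.0326, 0.0016 and 0.0002). MRPL10 stood at 0.48, 0.69 and 1.41 (limma adjusted p = 0.114, 0.0114 and 7.66e-05), and its NSM call was lost scaled to equal sums (limma adjusted p = 0.0964) and with only the compared groups in the fit (limma adjusted p = 0.0711). MRPL44 stood at 0.00, 0.88 and 0.74 on the deposited scale, and at −0.04 under both drugs when scaled to equal sums. MRPL47, unlike these, was lower with DSF (−0.57, limma adjusted p = 0.0210), near DMSO with NSM (−0.01) and higher with both (0.73, limma adjusted p = 0.00137; −0.05 scaled to equal sums).

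MRPL18 (chromosome 6, 159789812 to 159798436) encodes a protein of the central protuberance that in bacteria holds the 5S rRNA. Its normalized counts were 1985, 1991 and 1845 in DMSO, 1388, 1481 and 1497 in DSF, 1359, 1337 and 1218 in NSM, and 5080, 4561 and 2773 in DSF + NSM. Every single-drug library was below DMSO and every library with both drugs was above it. The log2 fold change was −0.41 ± 0.18 for DSF (limma adjusted p = 0.137), −0.57 ± 0.18 for NSM (limma adjusted p = 0.0207) and 1.05 ± 0.18 for both (limma adjusted p = 0.000435; 0.26 scaled to equal sums, limma adjusted p = 0.160). The interaction, by which the change with both drugs exceeded that of DSF and that of NSM added together, was 2.03 ± 0.26 (limma adjusted p = 0.000217), and 1.62 scaled to equal sums (limma adjusted p = 0.000252).

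MRPL18 starts 109 bases from TCP1 on chromosome 6, a gene that runs the other way and encodes a subunit of the cytosolic chaperonin. TCP1 had normalized counts of 6181, 6347 and 6419 in DMSO, 4197, 3788 and 4510 in DSF, 4184, 4385 and 6100 in NSM, and 14904, 13285 and 11406 in DSF + NSM. As for MRPL18, the single-drug libraries were below DMSO and those with both drugs above it. The changes were −0.60 ± 0.15, −0.39 ± 0.15 and 1.05 ± 0.15 (limma adjusted p = 0.0173, 0.0478 and 9.25e-05; the last was 0.27 scaled to equal sums, limma adjusted p = 0.0988), and the interaction was 2.05 ± 0.21 (limma adjusted p = 7.06e-05). The exons of the 2 genes share no bases. The 108 bases between their starts, on the strand of MRPL18, are shown because both genes lie beside them; no motif searched was found there.
MRPL18 and TCP1, chr6:159789704-159789811, plus strand: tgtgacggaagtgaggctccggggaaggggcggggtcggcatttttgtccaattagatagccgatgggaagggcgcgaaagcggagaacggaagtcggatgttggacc

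**Figure D4:**
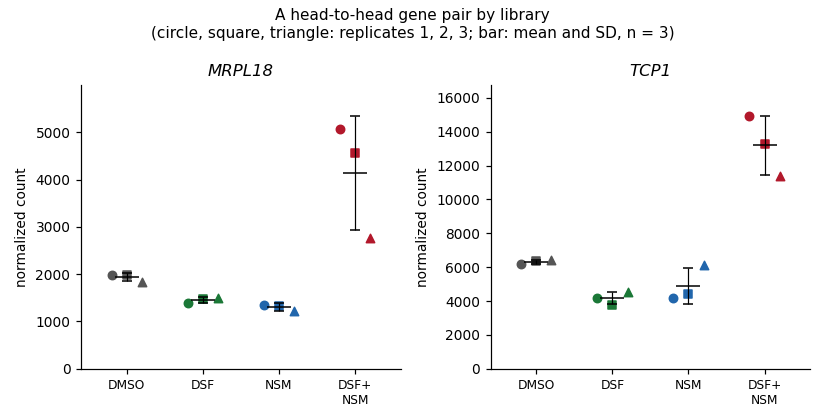
Normalized counts (y axis, from 0) of MRPL18 and of TCP1, the gene that starts 109 bases away on the other strand, in the 12 libraries by group, with circles, squares and triangles for replicates 1, 2 and 3 and bars for mean and SD. Both genes are above DMSO only with both drugs, at 2773 to 5080 for MRPL18 and 11406 to 14904 for TCP1.

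Such head-to-head neighbours were common among the members: 16 of 76 (21.1%) had another protein-coding gene starting within 1000 bases on the other strand, against 11.4% of protein-coding genes tested and 8.54% of all 20033. Among them is a pair with a gene of each subunit, MRPL46 and MRPS11, whose starts lie 63 bases apart. Both fell under NSM, MRPL46 from 468, 431 and 351 normalized counts to 276, 282 and 257 (−0.61 ± 0.17, limma adjusted p = 0.0100) and MRPS11 from 607, 575 and 528 to 366, 284 and 315 (−0.83 ± 0.17, limma adjusted p = 0.00133). Under DSF + NSM only MRPS11 was called lower (−0.69 ± 0.17, limma adjusted p = 0.00361; MRPL46 −0.28 ± 0.17, limma adjusted p = 0.180). MRPL54 and APBA3, whose starts lie 990 bases apart, were both higher under DSF + NSM (1.03 and 3.08, limma adjusted p = 0.00905 and 6.16e-06). Other pairs did not move alike. MRPL10 rose under NSM while LRRC46, 93 bases away, fell by 2.03 on the log2 scale (limma adjusted p = 0.00526). Under DSF + NSM MRPL10, MRPL36, MRPL47, MRPL50, MRPS12 and MRPS18C were called while their neighbours were not. For MRPL21, MRPL27, MRPL30, MRPL49 and MRPL52 only the neighbour was called.

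The addition of NSM to DSF was compared with DSF alone to ask what the combination did beyond a single drug. Of the 78 members 23 were higher and 11 lower than with DSF, against 21.7% and 21.4% of all genes (43.1% in either direction); without NSM replicate 3 the count was 54 in place of 34, against 60.2% of all genes. Compared with NSM alone, 12 were higher and 7 lower, against 20.3% and 18.3% (38.6% in either direction). Leaving out NSM replicate 3 gave 14 higher and 14 lower, against 24.7% and 24.4% (49.2% in either direction). With libraries scaled to equal sums these splits turned, to 4 higher and 42 lower against DSF (7.22% and 53.8% of all genes) and to 2 higher and 40 lower against NSM (9.72% and 44.9%). The large subunit medians were 0.22 against DSF and 0.10 against NSM, and those of the small subunit 0.11 and 0.04. MRPL17 was lower in both comparisons (−1.43 ± 0.16 and −0.97 ± 0.16, limma adjusted p = 2.23e-05 and 0.000463), and MRPL10 was higher in both (0.94 ± 0.20 and 0.72 ± 0.20, limma adjusted p = 0.00228 and 0.0124).

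The interaction was called for 14 of the 78 members, 12 positive and 2 negative, against 12.1% and 14% of all genes (26.1% in either direction). Scaled to equal sums it was called for 15, with 5 positive and 10 negative (6.75% and 28.6% of all genes). The positive ones were led by MRPL18, MRPL1 (1.89 ± 0.40, limma adjusted p = 0.00435) and MRPL13 (1.71 ± 0.21, limma adjusted p = 0.000202). On the deposited scale MRPL1 and MRPL13 fell with either drug alone and stood near DMSO with both: MRPL1 was at 253, 400 and 669 normalized counts in NSM and at 680, 552 and 570 in DSF + NSM, and MRPL13 was at 1073, 844 and 908 in DSF + NSM. The negative ones were MRPL34 (−0.82 ± 0.17, limma adjusted p = 0.00396), whose NSM rise was not seen with both drugs (1745, 1927 and 1563), and MRPL17 (−0.74 ± 0.22, limma adjusted p = 0.0268), whose call was lost without DMSO replicate 2 or 3, DSF replicate 1 or 3, NSM replicate 2, or DSF + NSM replicate 1 or 3 (limma adjusted p = 0.05002 to 0.07184). Scaled to equal sums, MRPL34 was called lower than DMSO with both drugs (−0.84, limma adjusted p = 3.34e-05). Without NSM replicate 3 the count was 34, against 45.8% of all genes, without DSF + NSM replicate 3 it was 23, and without DMSO replicate 2, DSF replicate 1 or DSF + NSM replicate 1 it was 8.

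**Figure D5:**
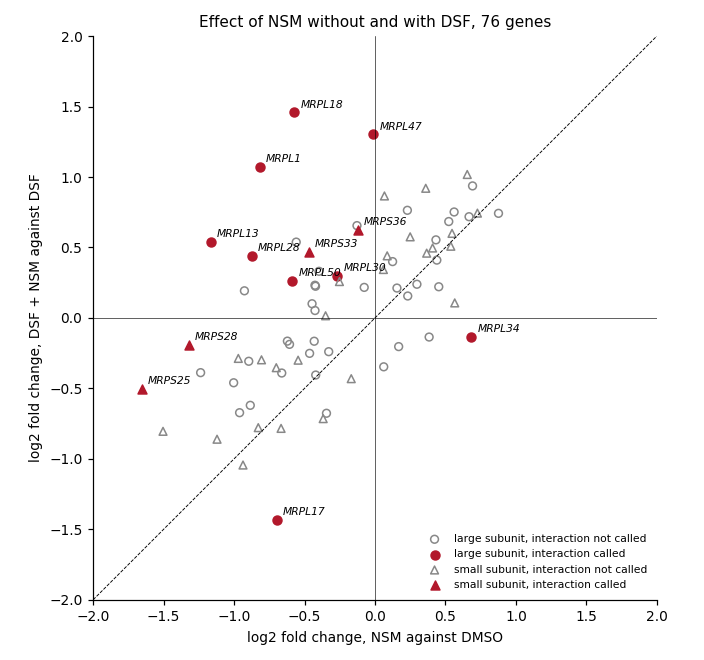
Log2 fold change of NSM against DMSO (x axis) and of DSF + NSM against DSF (y axis) for the 76 members, circles for the large and triangles for the small subunit, filled where the interaction had a limma adjusted p under 0.05; on the dashed line the effect of NSM is the same with and without DSF. MRPL18 (−0.57 and 1.46), MRPL47 and MRPL1 lie far above the line, and MRPL34 and MRPL17 below it.

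Both ribosomal RNAs of the particle were higher under NSM and under both drugs. They were taken from the rows RNR1 and RNR2, the RefSeq symbols of these genes on mitochondrial DNA. The 12S rRNA (RNR1) had normalized counts of 8001, 14604 and 11732 in DMSO, 19976, 20437 and 26479 in DSF, 38078, 37342 and 55685 in NSM, and 150560, 143560 and 119180 in DSF + NSM. The 4 groups did not overlap. The changes were 0.99 ± 0.22, 1.95 ± 0.22 and 3.63 ± 0.22 on the log2 scale (limma adjusted p = 0.00947, 2.03e-05 and 8.96e-08).

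The 16S rRNA (RNR2) stood at 100290, 92652 and 83044 in DMSO, 119570, 112360 and 128490 in DSF, 220900, 275270 and 790510 in NSM, and 726650, 682060 and 817780 in DSF + NSM. NSM replicate 3 was at the level of the libraries with both drugs. The changes were 0.39 ± 0.34, 1.99 ± 0.34 and 3.01 ± 0.34 (limma adjusted p = 0.470, 0.000459 and 1.43e-05). Without that library the DSF change was called (limma adjusted p = 0.0103) and the NSM change was 1.43. Scaled to equal sums the DSF + NSM changes were 2.84 for RNR1 and 2.23 for RNR2 (limma adjusted p = 2.2e-07 and 9.79e-05). Together they took 0.666 to 0.776% of the summed values in DMSO and 3.28 to 4.14% in DSF + NSM, and 1.48, 1.90 and 4.88% in the NSM libraries. Libraries were made from poly-A selected RNA, in which mitochondrial rRNA is recovered only in part, and the part of that selection in these values was not tested. The other mitochondrially encoded genes were not analysed here.

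Mitoribosomal proteins that carry other names numbered 7. Under DSF + NSM 2 were higher and 4 lower, with a median of −0.78, where 28.3% of all genes were higher and 24.5% lower. DAP3, a GTP-binding protein of the small subunit, was at 1614, 1634 and 1558 normalized counts in DMSO, 1904, 2154 and 2034 in DSF, 2194, 2193 and 2062 in NSM, and 4274, 4598 and 3860 in DSF + NSM. All treated libraries were above DMSO, and the change was 1.40 ± 0.11 with both drugs (limma adjusted p = 5.48e-07; 0.62 scaled to equal sums, limma adjusted p = 0.00016). PTCD3, another small subunit protein, was at 1493, 1410 and 1370 in DMSO, 878, 811 and 1033 in DSF, 480, 505 and 505 in NSM, and 679, 653 and 657 in DSF + NSM (−0.66 ± 0.12, −1.52 ± 0.12 and −1.10 ± 0.12; limma adjusted p = 0.00338, 1.57e-06 and 1.12e-05). GADD45GIP1, a large subunit protein, fell by 0.92 ± 0.17 with both drugs (limma adjusted p = 0.000834), and ICT1, a peptidyl-tRNA hydrolase built into the large subunit, was higher by 0.56 ± 0.15 (limma adjusted p = 0.00655) but at −0.22 when scaled to equal sums.

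With these 7 added and MRPS30, MRPS18A and MRPS36 moved to where structures place them, the large subunit held 52 genes, of which 12 were higher and 16 lower under DSF + NSM (median −0.10), against 28.3% and 24.5% of all genes. The small subunit then held 30, of which 6 were higher and 15 lower (median −0.43, against −0.23 by name). With equal sums 1 was higher in each, with 37 lower in the large and 23 lower in the small subunit. On that scale 11.3% of all genes were higher and 56.3% lower.

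By their number, which need not give the descent of every gene, 44 members were taken as having bacterial relatives and 32 as specific to mitochondria. Under NSM 7 of the former were higher and 20 lower (median −0.42), and 6 of the latter were higher and 9 lower (median −0.13), where 25.4% of all genes were higher and 23.7% lower. Leaving out NSM replicate 3 gave 9 and 21 (median −0.27) and 9 and 10 (median −0.06), against 31.2% and 28.7% of all genes. The genes so taken as mitochondria-specific were also split by name. Under DSF, NSM and both drugs the medians were −0.05, −0.01 and 0.07 for the 19 named for the large subunit. For the 13 named for the small one they were −0.43, −0.37 and −0.23. Those 13 include MRPS30, which belongs to the large subunit, and MRPS36, since described as part of another complex. The NSM medians of the 19 and the 13 were 0.10 and −0.20 without NSM replicate 3. These medians are descriptions with no test.

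Factors that assemble the mitoribosome or modify its rRNA numbered 27. Under DSF + NSM 4 were higher and 13 lower, with a median of −0.58, against 28.3% and 24.5% of all genes. Scaled to equal sums 0 were higher and 23 lower, against 11.3% and 56.3% of all genes. The largest fall was that of MRM1, a methyltransferase of the 16S rRNA, from 364, 274 and 286 normalized counts in DMSO to 57.9, 69.7 and 21.6 (−2.75 ± 0.46, limma adjusted p = 0.000308). FTSJ2, another methyltransferase of that rRNA, went from 786, 847 and 858 to 170, 170 and 200 (−2.20 ± 0.15, limma adjusted p = 2.4e-07). The groups were far apart for both. YBEY and MPV17L2 were higher by 0.61 and 0.56 (limma adjusted p = 0.00984 and 0.00519), but at −0.17 and −0.22 when scaled to equal sums.

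Of 16 translation factors 4 were higher and 7 lower under DSF + NSM (median −0.24), against 28.3% and 24.5% of all genes. Scaled to equal sums 0 were higher and 14 lower, against 11.3% and 56.3% of all genes. The count called was 6 without DMSO replicate 3 or DSF + NSM replicate 1, and 7 without DSF + NSM replicate 2 or 3. MTFMT, which formylates the initiator methionine, went from 170, 200 and 183 normalized counts to 36.7, 47.1 and 71.2 (−1.86 ± 0.24, limma adjusted p = 3.91e-05). TSFM, the elongation factor that recycles TUFM, went from 484, 512 and 519 to 198, 198 and 153 (−1.47 ± 0.17, limma adjusted p = 2e-05). The recycling factor MRRF and the release factor MTRF1L were higher by 0.67 and 0.60 (limma adjusted p = 0.00227 and 0.0189) but at −0.12 and −0.19 when scaled to equal sums. The MTRF1L call was lost without DMSO replicate 3 or DSF + NSM replicate 1 or 2 (limma adjusted p = 0.0522 to 0.0683).

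Of 16 genes for mitochondrial transcription and RNA handling, 10 were lower and 0 higher under DSF (median −0.62), 10 lower and 1 higher under NSM (median −0.95), and 9 lower and 1 higher under both (median −0.54). Of all genes 5.95%, 23.7% and 24.5% were lower in these comparisons. The DSF count was 0 without DSF replicate 2, 1 without DMSO replicate 2, 2 without DMSO replicate 1, 3 without DSF replicate 1 and 5 without DMSO replicate 3. The count for both drugs was 6 without DSF + NSM replicate 2, and with libraries scaled to equal sums all 16 were lower (56.3% of all genes). TFB2M, which opens mitochondrial promoters, went from 262, 296 and 278 normalized counts in DMSO to 184, 152 and 147 in DSF, 63.8, 89.1 and 83.1 in NSM, and 66.5, 58.7 and 66.6 in DSF + NSM. No treated library reached a DMSO library, and the change with both drugs was −2.11 ± 0.18 (limma adjusted p = 1.38e-06). PNPT1, an RNA-degrading enzyme, fell by 1.43 with both drugs (limma adjusted p = 0.000248). GRSF1, a protein of the mitochondrial RNA granules, was higher by 0.36 (limma adjusted p = 0.0313) but at −0.43 when scaled to equal sums. Its call was also lost when scaled by a trimmed mean of log ratios (limma adjusted p = 0.0518). The same held without DMSO replicate 1 or 3 or DSF + NSM replicate 2 or 3 (limma adjusted p = 0.0516 to 0.0939).

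Of 9 regulators tested, 0 were called under DSF, 3 were higher and 2 lower under NSM, and 2 were higher and 3 lower under both drugs. Of all genes 17.8%, 49.1% and 52.8% were called in these comparisons. In the fit without NSM replicate 3, 2 were called under DSF and all 9 under both drugs (4 higher and 5 lower), against 41.2% and 67.8% of all genes. Scaled to equal sums 0 were higher and 5 lower under both, against 11.3% and 56.3% of all genes. MYC went from 6648, 7067 and 7246 normalized counts in DMSO to 4824, 4562 and 5328 in DSF, 2544, 2775 and 2294 in NSM, and 376, 261 and 588 in DSF + NSM. The 4 groups did not overlap, and the change with both drugs was −4.17 ± 0.22 (limma adjusted p = 3.23e-08). PPRC1 fell by 1.76 ± 0.15 (limma adjusted p = 1.59e-06) and PPARGC1B, a related coactivator, by 1.47 ± 0.22 (limma adjusted p = 0.000135). The ETS factor GABPA and its partner GABPB1 were higher by 0.75 and 0.71 (limma adjusted p = 0.0126 and 0.0095) but at −0.03 and −0.07 when scaled to equal sums. The GABPA call was lost without DSF + NSM replicate 1 (limma adjusted p = 0.0546).

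On the deposited scale, the members were more divided in direction than cytosolic ribosomal proteins under NSM and under both drugs. Under DSF, or with libraries scaled to equal sums under both drugs, they were not. Of 77 cytosolic genes 1 was higher and 1 lower under DSF (median 0.16), 52 were higher and 0 lower under NSM (median 0.55), and 74 were higher and 0 lower under both drugs (median 1.01). Of all genes 11.9%, 25.4% and 28.3% were higher. Scaled to equal sums, 32 were higher and 2 lower under NSM (16.4% and 33.5% of all genes) and 18 were higher and 4 lower under both (11.3% and 56.3%). With NSM replicate 3 left out, 16 were higher and 4 lower under DSF (23.6% and 17.6% of all genes). There were 0 calls under DSF when replicate 1 or 2 of either DMSO or DSF was left out. Of 76 nuclear-encoded respiratory chain subunits, the usual partners of the mitochondrial ribosome, 0 were higher and 13 lower under DSF (median −0.18), 9 higher and 24 lower under NSM (median −0.17), and 8 higher and 18 lower under both (median 0.01). Of all genes 5.95%, 23.7% and 24.5% were lower. Scaled to equal sums 0 were higher and 65 lower under both (11.3% and 56.3% of all genes). Without NSM replicate 3, 20 were higher and 31 lower under both (35.3% and 32.5% of all genes). The DSF count was 26 without NSM replicate 3, where 41.2% of all genes were called. It was 4 without DSF replicate 2, 5 without DMSO replicate 1 or 2, and 7 without DSF replicate 1. The log2 fold changes of the members were less spread than those of all genes, with SDs of 0.32, 0.61 and 0.65 under DSF, NSM and both, against 0.72, 1.06 and 1.34. The genes compared were not matched by their level, and low values can widen a fold change. The part of level in this difference of spread was not tested.

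Levels between genes were compared per kilobase of the MANE Select transcript in DMSO. In the large subunit they ran from 59.9 per kilobase for MRPL42 to 2367 ± 177 for MRPL34 (mean ± SD, n = 3), with a median of 734. The low ends depend on long MANE transcripts, of 15557 bases for MRPL42 and 4210 for MRPS33. The mean count of MRPL42 over all libraries was 885, and which isoform was expressed was not tested. MRPL51 (2272 ± 143) and MRPL20 (2227 ± 101) lay within the SD of MRPL34. In the small subunit they ran from 141 for MRPS33 to 1756 ± 108 for MRPS34, with MRPS21 at 1654 ± 82.7 within reach and a median of 534. Over all libraries the highest small subunit gene per kilobase was MRPS24 (1563), close to MRPS21 (1549). In DMSO alone MRPS24 (1237) stood below MRPS34, MRPS21 and MRPS15. MRPS24 was at 875, 813 and 787 normalized counts in DMSO and 1304, 1325 and 1090 in DSF + NSM. The change was 0.58 ± 0.19 (limma adjusted p = 0.0218), and −0.20 scaled to equal sums. That call was lost without DMSO replicate 2 or 3 or DSF + NSM replicate 1 or 2. Of the exon bases of MRPS24, 606 are shared with a read-through transcript. The 2 pseudogenes were low: MRPL45P2 stood at 22.5 to 28.3 in DMSO and 55.5 to 74.1 in DSF + NSM, and MRPS31P5 at 100 to 138 and 188 to 198. Reads of either cannot be told apart from those of the parent gene where the sequences match.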

How the data were processed

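The deposited values were normalized counts per gene, a signal with fractions, which the authors deposited as 1 table per library; whole reads could not be recovered (27.8 to 30.3% of low values were whole multiples of a common step, within a tolerance of 0.001), so the depth in reads is unknown and no count model was run. Per the study's methods, the authors sequenced TruSeq libraries from poly-A RNA in pairs and quantified them with STAR and Salmon on GRCh38, with DESeq2 for analysis; the submitters' processing notes name Bowtie2, featureCounts, Picard, Trimmomatic, DESeq2, bcl2fastq 2.19 and build hg38. The file headers name 24 libraries, of which 12 were used. If libraries were scaled together with the others, their values depend on libraries not analysed here. Whether strand was used in counting is not given in the sources used here; 19 members share exon bases with another gene on the same strand and 30 on the other.

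Groups came from the labels. Genes with a value of at least 10 in at least 3 libraries were tested with limma 3.58.1 (R 4.3.3), trend and robust empirical Bayes, on log2(value + 1), all 12 libraries in 1 fit, Benjamini-Hochberg over 13502 genes, threshold 0.05. The procedure was tested on simulated data with few changed genes, the same spread in every group and no outlying library. These settings differ from the data, so that test does not show how the calls behave here. Positions are GENCODE 44 (GRCh38), found for 77 of 78 members. p-values measure the spread between 3 independent experiments per group.

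Correlations of deviations between same-numbered libraries of different groups ran from −0.064 to 0.278 (median 0.057). Those between other numbers ran from −0.233 to 0.239 (median −0.026). The highest was that of replicate 3 of NSM with replicate 3 of DSF + NSM, so a weak shared part by replicate number is possible. Replicate numbers were not used as pairs in the main fit, and a fit with a replicate block is given below. Members and gene lists were chosen with earlier results of these data known, and lists are described by counts and medians only. Named genes are, per subunit and comparison with DMSO, the 3 largest called falls and rises with a mean of at least 50, the 3 most extreme interactions each way, 10 genes of known role, the highest per kilobase in each subunit, and from the other lists the 2 largest called falls and rises and every called regulator; APBA3, LRRC46, MRPL16, MRPL32, MRPL35, MRPL46, MRPL47, MRPS11 and TCP1 were added after their values were seen. Alternatives were other scalings, filters, pseudocounts and weights, a replicate block, other subunit definitions and leaving out each library.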

Additional observations from a re-analysis of the deposited data

Results flagged for a closer look

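The effect of NSM differed with and without DSF, by the interaction term of the limma fit (adjusted over all genes), for 14 of the 78 mitochondrial ribosomal protein genes. That is 17.9%, against 26.1% of all genes. With libraries scaled to equal sums most of the interactions called were negative, as given above. Among the genes named here, MRPL18 had an interaction of 2.03 on the log2 scale (NSM against DMSO −0.57, DSF + NSM against DSF 1.46, limma adjusted p = 0.000217), MRPL1 of 1.89 (−0.82 and 1.07, limma adjusted p = 0.00435) and MRPL13 of 1.71 (−1.17 and 0.54, limma adjusted p = 0.000202). MRPS25 had an interaction of 1.15 (−1.65 and −0.50, limma adjusted p = 0.0160), MRPS28 of 1.13 (−1.32 and −0.19, limma adjusted p = 0.00353) and MRPS36 of 0.75 (−0.12 and 0.63, limma adjusted p = 0.0397). It was negative for MRPL34, at −0.82 (0.68 and −0.13, limma adjusted p = 0.00396), and for MRPL17, at −0.74 (−0.70 and −1.43, limma adjusted p = 0.0268). NSM replicate 3, which stood apart, enters each of these values. Its part in them was not tested beyond the fit without it, in which 34 members were called, against 45.8% of all genes.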

How the results depend on the processing

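With libraries scaled to equal sums, 11 of the DSF + NSM changes chosen by the rule for named genes and called on at least 1 of the scales reversed. They were MRPS18B −0.61, MRPS30 −0.73, MRPS24 −0.20, ICT1 −0.22, MRRF −0.12, MTRF1L −0.19, YBEY −0.17, MPV17L2 −0.22, GRSF1 −0.43, GABPB1 −0.074 and GABPA −0.028. The DSF + NSM changes of MRPL44 and MRPL47, outside that count, turned too, as given above. No change chosen by the rule and called in either setting reversed under the other alternatives run. These were other filters, pseudocounts, scalings and weights, fits to the compared groups only, the replicate block and leaving out each library. Of the named changes called in neither setting, 5 turned sign with equal sums and 6 under other alternatives: MRPS18A (NSM), MRPS18C (DSF), MRPL11, MRPL34 and MRPS36 (DSF + NSM) and MRPS36 (NSM), each when 1 library was left out. Member counts called with libraries weighted by their own spread were 51 for DSF (17 reported), 65 for NSM (43), 61 for DSF + NSM against DSF (34), 52 against NSM (19) and 57 for the interaction (14); with only the compared groups in the fit, 47 for DSF and 8 for DSF + NSM against NSM; and scaled to equal sums, 42 for DSF + NSM against NSM. Leaving out 1 library gave 4 to 30 for DSF, 28 to 50 for NSM, 37 to 60 for DSF + NSM, 23 to 54 against DSF, 13 to 28 against NSM and 8 to 34 for the interaction. Apart from those given above, the shares of all genes called in these fits are not given here, so these counts describe the members alone. With the replicate block the counts were 18, 45, 44, 34, 21 and 16 in the same order; the block changed no count by over 1.5 times and reversed no named change. Large subunit medians scaled to equal sums were −0.31, −0.67 and −0.88 for DSF, NSM and DSF + NSM, and small subunit medians −0.36, −0.52 and −1.02. With only genes taken as mitochondria-specific by number, the DSF and NSM medians were −0.051 and −0.011 (large) and −0.43 and −0.37 (small). With subunits by structure, the small subunit medians were −0.36 for NSM and −0.43 for DSF + NSM. Leaving out 1 library gave large subunit medians of −0.24 to −0.16, −0.43 to −0.058 and −0.19 to 0.02, and small subunit medians of −0.34 to −0.24, −0.32 to −0.20 and −0.27 to −0.20. Apart from what a setting changes by construction, the cause was not tested. Each group held 3 libraries and the read depth is unknown, and the part of either in the fraction of genes called was not tested.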
